A study of Mus musculus with 9 samples.

Results

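The genes of the sodium, calcium and potassium channel subunits were examined in the fetal mouse brain after an early exposure to alcohol (EtOH). Members were all loci of the deposited expression table whose gene symbol begins with Cacna, Cacnb, Cacng or Kcn, or is Scn followed by digits and at most the letter a or b, without Kcne2, Kcnq1 and Kcnq1ot1. The rule found 130 loci among the 27095 of the table, of which 12 carry sodium, 26 calcium and 92 potassium channel symbols. They hold 131 symbols, because Scn1a and Scn9a were joined into 1 locus and share 1 value. The name voltage-gated fits part of this collection, since 59 loci encode pore-forming subunits of voltage-gated type, 35 encode pores of other types such as inward rectifiers and tandem-pore channels, and 36 encode auxiliary subunits or regulators. Scn2a1, the older symbol of the main sodium channel of excitatory neurons, falls outside the rule because of its last digit, and its values are given once beside the other sodium channels.

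Whole-transcriptome RNA-seq was run on wild type C57BL/6 fetuses (C57BL/6J in the methods of the study) on gestational day 17, with 3 animals in each of 3 groups. Control fetuses came from dams that received lactated Ringer's solution as vehicle, and both other groups came from dams injected with EtOH at 2.9 g/kg on gestational day 7. The study scored each exposed fetus for malformations of the eye, and of the cortex (in its methods) or face (in its results). It called a fetus affected where it had them and unaffected where it did not. These groups thus share strain, age and exposure and differ in outcome. The labels name the tissue as fetal brain, whereas the methods of the study name the cortex, and neither states the litter or the sex of the sequenced animals. The study reports that most of its affected samples were female, so the exposed groups may also differ in sex. The table gives 1 value per locus and group in FPKM, a count of fragments scaled to transcript length and library size, estimated over the 3 animals. No value of a single animal was used here, so no spread between animals, standard error or test can be given for any value that follows. Differences are therefore described on the scale of log2(FPKM + 0.1), and a difference of at least 0.5 (1.41-fold) in either direction is counted and set beside the share of all loci that are as far apart.

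Voltage-gated channels open when the membrane depolarises. Sodium channels drive the upstroke of the action potential, calcium channels turn depolarisation into calcium entry, transmitter release and transcription, and potassium channels repolarise the membrane and set its resting level. In the fetal cortex their genes are known to come on as neurons leave the progenitor zone and begin to fire, and early isoforms such as Scn3a precede the adult set.

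The promoters of 4 members are shown because these loci hold the extreme values of the comparison between the exposed groups. Cacna1i (chr15:80287238-80398292) had, on the scale as deposited, the largest difference of any calcium channel, Kcnj10 (chr1:172341210-172374085) the largest of the inward rectifiers, Scn8a (chr15:100870652-101045929) the largest of the sodium channels under the rule, and Kcnj8 (chr6:142564939-142571356) was the only member lower by the threshold. Each run is the 250 bases upstream of a RefSeq transcription start on GRCm38.p6, the assembly of the mm10 build used for the files, read 5′ to 3′ on the strand of the gene, and the capitals mark GC boxes (GGGCGG on either strand).
Cacna1i, chr15:80286988-80287237, plus strand: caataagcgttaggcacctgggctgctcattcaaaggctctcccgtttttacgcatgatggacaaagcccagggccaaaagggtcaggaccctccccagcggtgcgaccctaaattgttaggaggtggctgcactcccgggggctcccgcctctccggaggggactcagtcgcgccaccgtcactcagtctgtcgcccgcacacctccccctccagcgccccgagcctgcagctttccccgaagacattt
Kcnj10, chr1:172340960-172341209, plus strand: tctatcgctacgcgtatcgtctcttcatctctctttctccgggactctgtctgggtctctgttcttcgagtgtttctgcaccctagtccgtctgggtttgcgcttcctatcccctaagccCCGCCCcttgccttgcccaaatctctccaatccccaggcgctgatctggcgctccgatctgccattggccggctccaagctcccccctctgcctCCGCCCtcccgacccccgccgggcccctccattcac
Scn8a, chr15:100870395-100870644, plus strand: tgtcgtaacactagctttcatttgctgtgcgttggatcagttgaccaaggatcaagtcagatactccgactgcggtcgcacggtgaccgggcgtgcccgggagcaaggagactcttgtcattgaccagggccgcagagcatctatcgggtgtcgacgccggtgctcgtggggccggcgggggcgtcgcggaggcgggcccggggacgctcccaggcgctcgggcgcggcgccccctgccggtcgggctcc
Kcnj8, chr6:142571615-142571864, minus strand: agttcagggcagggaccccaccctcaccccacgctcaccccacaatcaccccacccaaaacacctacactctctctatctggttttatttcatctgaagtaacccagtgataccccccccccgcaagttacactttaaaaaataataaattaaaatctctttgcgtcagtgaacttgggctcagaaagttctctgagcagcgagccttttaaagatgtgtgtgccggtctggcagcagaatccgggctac
The Kcnj10 run holds 2 GC boxes and the other runs none, and none of the 4 holds the letters TATAAA. The G and C content was 62.4% for Cacna1i, 62.0% for Kcnj10, 68.0% for Scn8a and 49.2% for Kcnj8. Over the windows from 250 bases before to 50 after a start, RefSeq had 131 entries for 97 member symbols. A GC box stood in 45.8% of these windows against 35.7% of all 32851, and TATAAA stood in 4.58% against 13.6%. The letters TTCAGCACC, the opening of the element bound by the neuronal repressor REST, stood in 1 member window (0.763%) against 0.371% of all windows. Their median G and C content was 58.3%, against 52.7% over all windows.

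Channel transcripts were mostly of low to moderate level. The mean of the 3 groups reached 1 FPKM for 79 of the 130 loci, with 6 of 12 sodium, 21 of 26 calcium and 52 of 92 potassium loci, and the other 51 are described only by their levels. Among the 79, the median level was 4.57 FPKM, against 8.33 FPKM over all 15548 loci past the same filter. Only 14 members reached a mean of 10 FPKM, and auxiliary subunits led this order. The highest were Cacng4, at 102 FPKM in control, 94.7 in unaffected and 121 in affected fetuses, and Cacng7, at 96.1, 98.1 and 106 FPKM. Both encode transmembrane AMPA receptor regulatory proteins, which are related to calcium channel gamma subunits and act on glutamate receptors. Cacnb3, an intracellular beta subunit that brings calcium channels to the membrane, followed with 63.1, 60.6 and 69.0 FPKM. The sodium channel beta subunit Scn3b and the BK channel beta subunit Kcnmb4 were next, with means of 39.5 and 32.9 FPKM. Pore-forming members stood lower, and Kcnk2, a mechanosensitive leak channel, was among the highest of them with a mean of 16.0 FPKM.

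**Figure D1:**
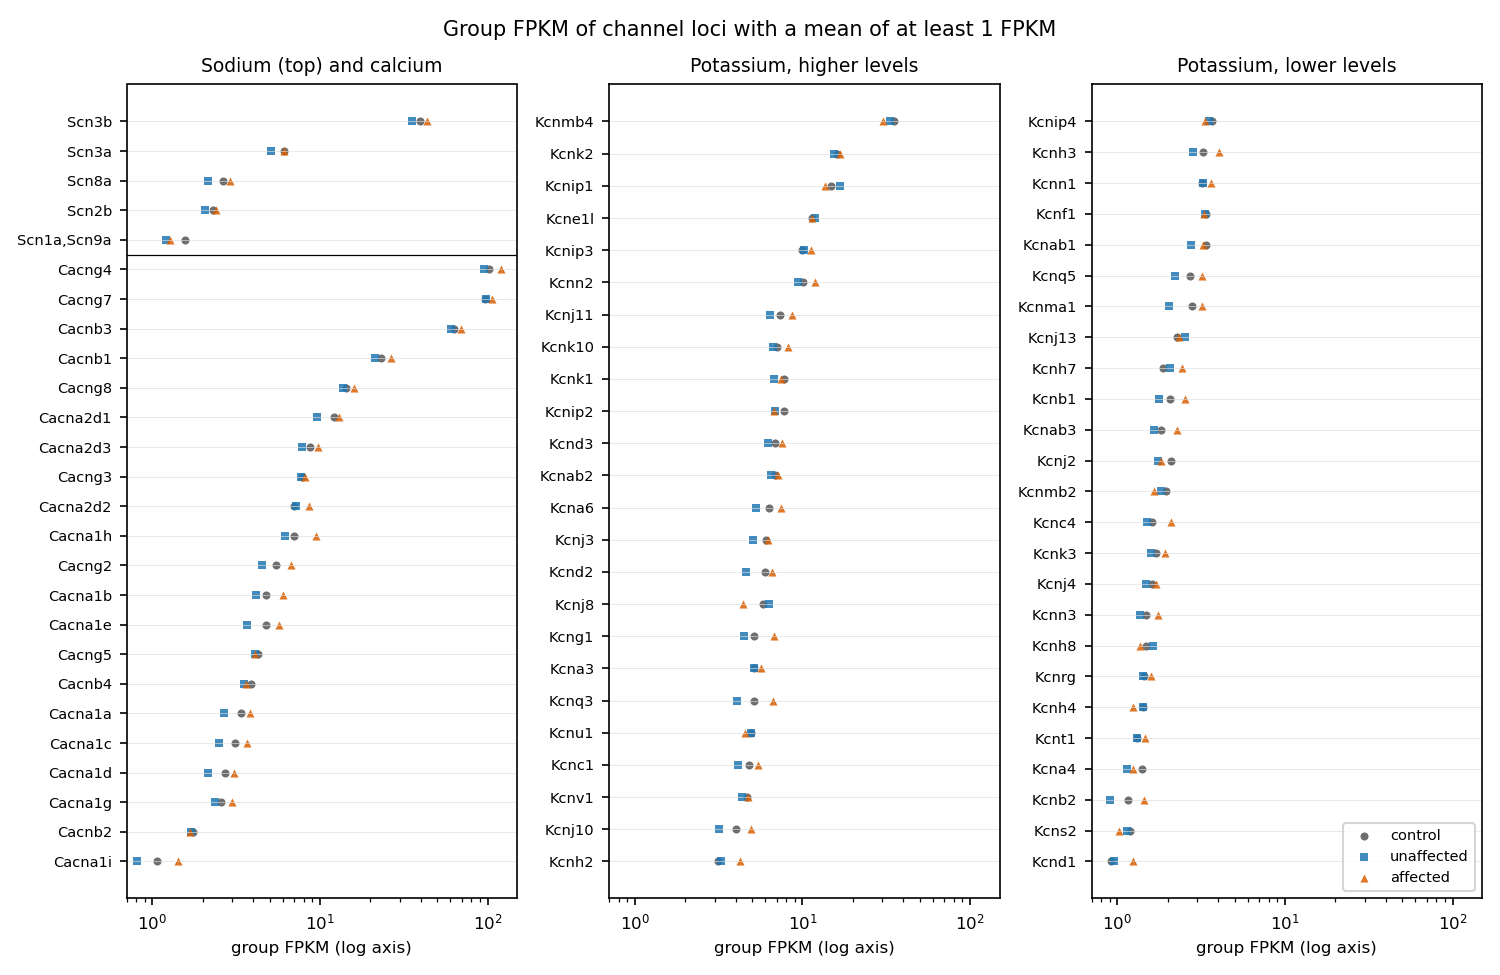
Group FPKM on a log axis for 75 of the 79 channel loci with a mean of at least 1 FPKM, with 1 marker for each of the control, unaffected and affected groups and no error bars because only group values were used. Levels run from Cacng4 at 121 FPKM in affected fetuses to Cacna1i at 0.807 FPKM in unaffected fetuses, and for many pore-forming subunits the affected marker lies to the right and the unaffected marker to the left.

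Affected fetuses had higher channel transcript levels than unaffected fetuses for most members. In this comparison 64 of the 79 members (81.0%) were above 0, against 51.2% of all loci past the filter, and the median difference was 0.24, against 0.01 over all loci. The threshold of 0.5 was reached by 12 members on the higher side (15.2%), where the share of all loci was 10.04%, and by 1 member on the lower side, where it was 7.60%. Unnamed assembled loci vary more, and among the 12666 loci with a gene symbol, a background added after the values were seen, these shares were 6.26% higher and 6.25% lower (0.924% and 0.679% for unaffected against control, 1.37% and 3.03% for affected against control). The 12 members were the calcium channel genes Cacna1b, Cacna1c, Cacna1e, Cacna1h, Cacna1i and Cacng2 and the potassium channel genes Kcnb2, Kcng1, Kcnj10, Kcnma1, Kcnq3 and Kcnq5. None of the 79 was as far as 0.5 from control in either exposed group. Unaffected fetuses were below control for most members, with a median of -0.12 and 15 of 79 (19.0%) above 0, against a median of 0.01 and 51.6% above 0 over all loci. Shares of all loci past the threshold in that comparison were 3.09% higher and 3.80% lower. Affected fetuses were above control for most members, with a median of 0.15 and 58 of 79 (73.4%) above 0, against 0.02 and 52.9%, and the shares of all loci past the threshold were 4.58% higher and 4.75% lower. The 3 comparisons share their groups, so a low value in the unaffected group enters both comparisons that hold it.

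Transcript length moved with these differences over the whole table. The longest annotated transcript of the members past the filter had a median of 4389 nt, against 3432 nt over all loci with a length (80.8% of the loci and all members). When the loci were split by length into 5 bins of equal size, 31 of the 79 members (39.2%) were in the bin of the longest transcripts, from 5362 nt upward. In that bin, affected against unaffected fetuses differed by a median of 0.30 over all loci and 0.43 over the members, and the threshold was reached by 21.9% of all loci and by 11 of the 31 members (35.5%). In the bin of the shortest, up to 1962 nt, the median was -0.30 over all loci and 0.14 over 7 members. Affected against control, the bin of the longest transcripts had medians of 0.19 over all loci and 0.22 over the members, and unaffected against control it had -0.10 and -0.25. When the running median over loci of like length was subtracted, the median of the members became 0.13 for affected against unaffected, 0.04 for affected against control and -0.10 for unaffected against control. After that step, 58 of the 79 members were above 0 in affected against unaffected fetuses, and 2 members, Kcng1 at 0.53 and Kcnab3 at 0.52, reached the threshold (2.5% of the members, against 2.2% of all loci with a length). The part of transcript length, or of any property of the libraries that goes with it, in the difference of single genes was not tested.

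**Figure D2:**
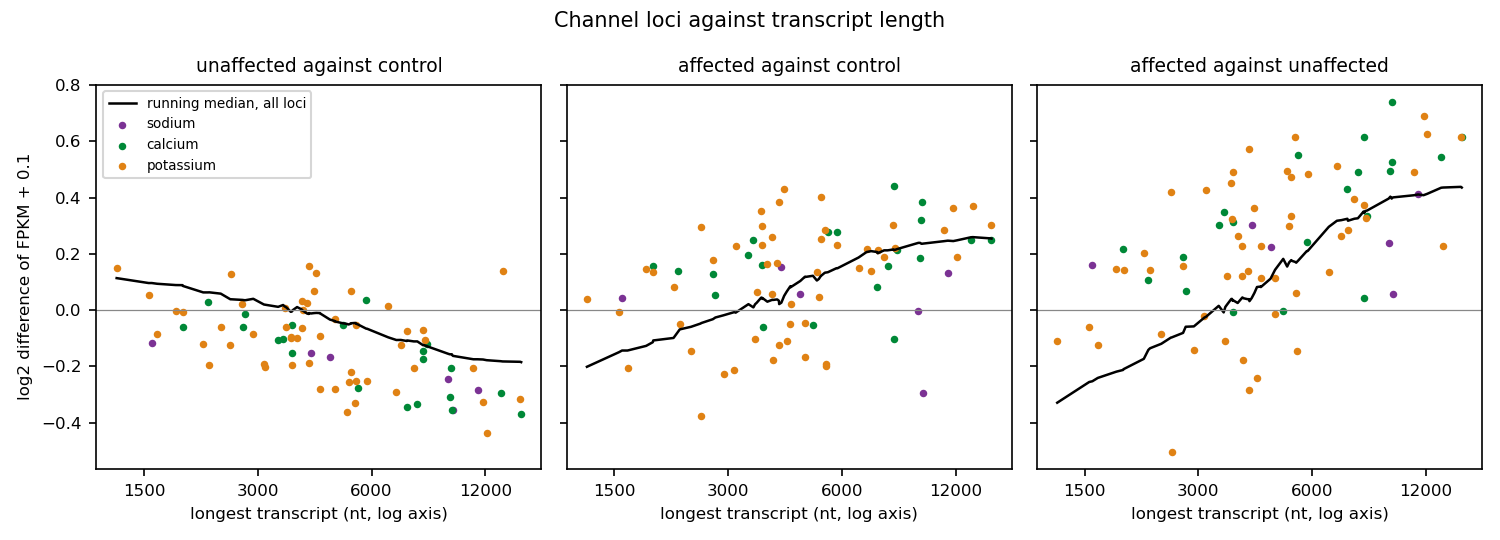
Difference of log2(FPKM + 0.1) of the 79 channel loci against the longest annotated transcript on a log axis, for each of the 3 comparisons, with points coloured by ion and the running median of all loci as a black line. In affected against unaffected fetuses the line passes from below 0 at short to above 0 at long transcripts, and 58 of the 79 points lie above it.

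Sodium channel genes were lower in unaffected than in control fetuses at all 6 loci past the filter, with a median of -0.20, and none reached the threshold. Scn3a, a pore-forming alpha subunit known mainly from the brain before birth, was at 6.08 FPKM in control, 5.12 in unaffected and 6.06 in affected fetuses. Its affected and control levels were nearly equal (difference -0.00), and the unaffected level was lower by 0.24. Scn8a, the alpha subunit of the axon initial segment and nodes of Ranvier, was at 2.63, 2.14 and 2.89 FPKM, with 0.41 between affected and unaffected fetuses, of which 0.00 was left without the length trend. The joined locus of Scn1a, the alpha subunit of fast-spiking interneurons, and Scn9a, a subunit of sensory neurons, was at 1.57, 1.21 and 1.26 FPKM. This locus was below control in both exposed groups, with -0.35 in unaffected and -0.29 in affected fetuses. Its transcripts are long, and with the length trend removed its difference from control in affected fetuses was -0.53. Scn2a1, outside the rule, was at 6.40, 4.93 and 7.24 FPKM, and its affected level was higher than the unaffected level by 0.54. Its longest transcript has 8935 nt, in the bin where 21.9% of all loci reached the threshold. A value without the length trend is not given for it. The 3 alpha subunit loci had a median of 0.24 for affected against unaffected fetuses, which turned to -0.16 without the length trend.

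The sodium channel beta subunits, small membrane proteins that tune gating and adhesion, stood closer together. Scn3b was at 39.4, 35.4 and 43.8 FPKM in control, unaffected and affected fetuses and was the most abundant sodium channel transcript. Scn2b, whose locus overlaps other genes, was at 2.31, 2.05 and 2.41 FPKM. All 3 beta subunits past the filter were lowest in unaffected and highest in affected fetuses, with a median difference between these of 0.22, or 0.26 without the length trend. Sodium channel genes of other tissues were close to undetected, with mean levels under 0.1 FPKM for Scn4a of skeletal muscle, Scn10a and Scn11a of sensory neurons, Scn7a and the beta subunit Scn4b.

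The pore-forming alpha1 subunits of calcium channels had the largest median difference between the exposed groups of the main families as deposited, a rank that was lost without the length trend. All 8 alpha1 loci past the filter were lower than control in unaffected fetuses, with a median of -0.30, and all 8 were higher than control in affected fetuses, with a median of 0.25. Between affected and unaffected fetuses the differences ran from 0.33 to 0.74 with a median of 0.54, and 5 of the 8 reached the threshold, as did 10.04% of all loci. These transcripts are all in the bin of the longest, where 21.9% of all loci reached it. Without the length trend the median of the 8 was 0.15 for affected against unaffected fetuses, with 7 still above 0 and none at the threshold, whereas for affected against control it was -0.00 with 3 above 0.

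Among the high-voltage-activated channels, Cacna1b, the N-type channel of presynaptic terminals, was at 4.78 FPKM in control, 4.13 in unaffected and 5.99 in affected fetuses, a difference of 0.53 between the exposed groups. Cacna1e, the R-type channel, was at 4.77, 3.67 and 5.69 FPKM, and its difference of 0.62, or 0.18 without the length trend, was the largest of this class on both scales. Cacna1a, the P/Q-type channel that triggers fast transmitter release, was at 3.40, 2.68 and 3.80 FPKM. The L-type channels, which couple calcium entry to transcription, were at 3.09, 2.50 and 3.69 FPKM for Cacna1c and at 2.70, 2.16 and 3.08 FPKM for Cacna1d. Cacna1c differed by 0.54 between affected and unaffected fetuses, and Cacna1a at 0.49 and Cacna1d at 0.50 fell just under the threshold before rounding. Both L-type loci overlap other named genes in the table, Dcp1b and Dcp1a among them. Each of the 5 had its lowest level in unaffected and its highest in affected fetuses. The L-type genes of skeletal muscle and retina, Cacna1s and Cacna1f, had means under 0.1 FPKM.

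Low-voltage-activated T-type channels open near the resting potential and support burst firing. Cacna1h was the most abundant alpha1 transcript, at 6.99 FPKM in control, 6.18 in unaffected and 9.52 in affected fetuses, and its difference from control in affected fetuses, 0.44, was the largest of all 79 members. Its difference between the exposed groups was 0.62. Cacna1i was at 1.06, 0.807 and 1.41 FPKM, and its difference of 0.74 between the exposed groups was the largest of all members, at a level near the filter. With a pseudocount of 1 FPKM it was 0.42, under the threshold and below Kcnq3 at 0.59. Without the length trend 0.34 was left for Cacna1i, no longer the largest, and Cacna1h had 0.27 between the exposed groups and 0.23 against control, also no longer the largest. Cacna1g was at 2.56, 2.35 and 2.99 FPKM and differed by 0.33, which was close to the value of loci of like length, with -0.02 remaining after the length trend was removed.

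**Figure D3:**
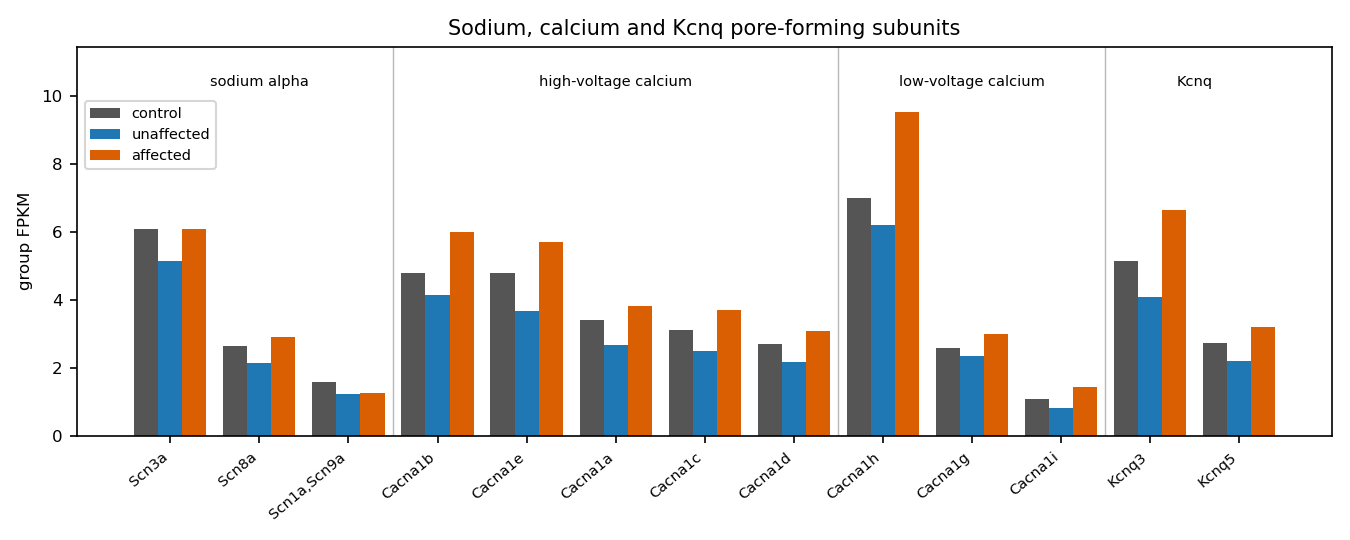
Group FPKM of the sodium channel alpha and calcium channel alpha1 subunits past the filter and of Kcnq3 and Kcnq5, as bars from 0 for control, unaffected and affected fetuses, with no error bars because only group values were used. Unaffected bars are the lowest of the 3 for all genes shown, and affected bars are the highest for all but Scn3a and the joined Scn1a and Scn9a locus.

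The 13 auxiliary subunits of calcium channels had a median of 0.22 between the exposed groups, below that of the alpha1 subunits, but without the length trend this order turned, with 0.25 against 0.15. The alpha2delta proteins, extracellular subunits that raise channel density and take part in synapse formation, had a median of 0.31 between affected and unaffected fetuses (0.10 without the length trend). Cacna2d1 was at 12.2 FPKM in control, 9.58 in unaffected and 12.9 in affected fetuses, and its -0.35 in unaffected against control was the lowest of the group. Cacna2d3 was at 8.74, 7.85 and 9.79 FPKM, and Cacna2d2 at 7.03, 7.21 and 8.55 FPKM. Cacna2d2 was thus a member whose unaffected level was not below control. The beta subunits had a median of 0.12 between the exposed groups, with Cacnb1 at 23.1, 21.4 and 26.4 FPKM as the farthest apart (0.30). With the length trend removed, Cacnb1 was at 0.29, and Cacnb4, at 0.04 as deposited, was farther from 0 at -0.30. Cacnb4, at 3.88, 3.50 and 3.61 FPKM, and Cacnb2, at 1.75, 1.69 and 1.69 FPKM, were below control in both exposed groups. The beta subunits were near 0 against control in affected fetuses, with a median of 0.04 that turned to -0.01 without the length trend or without the trend of locus span.

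The AMPA receptor regulatory proteins of the Cacng family had a median of 0.16 between the exposed groups over 6 loci, or 0.30 without the length trend. Cacng2, or stargazin, which carries AMPA receptors to the synapse, was at 5.50 FPKM in control, 4.53 in unaffected and 6.68 in affected fetuses and reached the threshold at 0.55, the only auxiliary subunit of any ion to do so as deposited. Cacng2 was at 0.38 without the length trend, and Kcnab3 was the only auxiliary subunit past the threshold. Cacng8 was at 14.3, 13.7 and 16.0 FPKM and Cacng4 at the levels given above, with differences of 0.22 and 0.35. Cacng3 and Cacng5 hardly varied, with 0.07 and -0.01. The true gamma subunits of muscle, Cacng1 and Cacng6, did not pass the filter, and Cacng6 was listed at 0 in controls.

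Potassium channel genes, the most numerous members, had a median of 0.23 for affected against unaffected fetuses, with 39 of 52 above 0, and of -0.09 for unaffected against control. The Kcna, Kcnb, Kcnc and Kcnd genes encode the delayed rectifiers and A-type channels that end action potentials, and all 11 past the filter were higher in affected than in unaffected fetuses. Their median was 0.45, or 0.18 without the length trend, where 9 of the 11 were above 0 and Kcnd3 and Kcna4 turned to -0.05 and -0.03. Kcnd2, the main dendritic A-type channel, was at 5.97 FPKM in control, 4.63 in unaffected and 6.57 in affected fetuses, a difference of 0.50 that fell just under the threshold before rounding. Kcnd3, another A-type subunit, was the most abundant of the class at 6.83, 6.26 and 7.54 FPKM and differed by 0.27. Kcnb2, a delayed rectifier, was at 1.15, 0.907 and 1.44 FPKM and was the 1 gene of the class past the threshold, at 0.62. It fell under the threshold without the length trend (0.18) and with a pseudocount of 1 FPKM (0.36). Kcna6 was at 6.34, 5.31 and 7.47 FPKM, with 0.49. The Kcnc genes, subunits of the fast delayed rectifiers of fast-spiking neurons, differed by 0.39 for Kcnc1 and 0.45 for Kcnc4. Kcna4 was at 1.40, 1.13 and 1.24 FPKM and was below control in both exposed groups. Kcnd1, at 0.910, 0.959 and 1.24 FPKM, was the class's farthest from control in affected fetuses (0.40, or 0.28 without the length trend, behind Kcnc4 at 0.31).

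Kcnq genes encode the subunits of the M-current, which restrains repetitive firing. Kcnq3 was at 5.13 FPKM in control, 4.07 in unaffected and 6.63 in affected fetuses. Its difference between the exposed groups, 0.69, was the largest of all potassium channel genes, but only 0.28 was left without the length trend, below Kcng1, Kcnab3 and others. Kcnq5, at 2.72, 2.21 and 3.19 FPKM, reached 0.51, and both genes were lowest in unaffected and highest in affected fetuses. All 4 Kcnq loci past the filter were higher in affected than in control fetuses, with a median of 0.28, and all 4 stayed above 0 without the length trend, with a median of 0.10.

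The Kcnh genes, of the eag and erg families, did not move as a group. Kcnh2, the erg channel, was at 3.11, 3.27 and 4.23 FPKM in control, unaffected and affected fetuses, and Kcnh3 at 3.25, 2.83 and 4.02 FPKM, with 0.36 and 0.49 between the exposed groups. Kcnh2 was 0.43 above control in affected fetuses, the largest difference of the potassium channel genes in that comparison. Kcnh8, at 1.47, 1.63 and 1.36 FPKM, and Kcnh4, at 1.42, 1.42 and 1.25 FPKM, were lower in affected than in unaffected fetuses, with -0.24 and -0.18. The median of the 5 Kcnh loci was 0.23, which turned to -0.21 without the length trend.

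Silent subunits do not form channels alone and join Kcnb subunits to change their gating. Among them, Kcng1 was at 5.13 FPKM in control, 4.49 in unaffected and 6.73 in affected fetuses and reached 0.57 between the exposed groups. It was the only member higher by the threshold outside the bin of the longest transcripts, and 0.53 remained without the length trend. Kcnv1 at 0.11, Kcnf1 at -0.01 and Kcns2 at -0.15 did not share this difference. The median of the 4 was 0.05, or -0.06 without the length trend.

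Calcium- and sodium-activated channels were led by Kcnn2, a small-conductance channel of the afterhyperpolarisation, at 10.1 FPKM in control, 9.44 in unaffected and 11.8 in affected fetuses. Kcnma1, the BK channel opened by voltage and calcium together, was at 2.80, 2.04 and 3.20 FPKM. It had the lowest unaffected level relative to control of all 79 members, -0.44, but at -0.26 without the length trend it was behind Kcnd2 at -0.31. It reached 0.62 between the exposed groups, with 0.21 left without the length trend. Its most abundant auxiliary subunit, Kcnmb4, which slows BK gating in neurons, was at 35.1, 33.2 and 30.4 FPKM, with -0.12 between the exposed groups, which turned to 0.12 without the length trend. Kcnu1, the gene of a channel known from sperm, was at 4.90, 4.93 and 4.56 FPKM, a level above that of Kcnma1.

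Inward rectifiers, which hold the resting potential, held both the highest and the lowest values of the non-voltage-gated pores. Kcnj10, the glial rectifier that clears extracellular potassium, was at 4.01 FPKM in control, 3.17 in unaffected and 4.91 in affected fetuses, with 0.62 between the exposed groups and 0.44 without the length trend. Kcnj11, the neuronal pore of ATP-sensitive channels, was at 7.34, 6.37 and 8.61 FPKM, with 0.43. Kcnj8, the pore of the ATP-sensitive channel of pericytes and vascular smooth muscle, had the reverse order, at 5.77, 6.32 and 4.43 FPKM. Its -0.50 between affected and unaffected fetuses and -0.38 against control were the lowest values of all 79 members in those comparisons. Without the length trend Kcnj8 was at -0.41 between the exposed groups, still the lowest, and at -0.33 against control, where the joined Scn1a and Scn9a locus and Kcns2 were lower. Kcnj13, a channel of choroid plexus epithelium whose locus overlaps Gigyf2, was at 2.26, 2.52 and 2.33 FPKM. Tandem-pore leak channels lay close together, with Kcnk2 at 16.0, 15.4 and 16.7 FPKM, and all 4 past the filter were above 0 between the exposed groups, from 0.12 to 0.29. Of the 4, 3 were above 0 without the length trend, and Kcnk10, at the top of this range, turned to -0.03.

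Of 11 potassium channel auxiliary subunits past the filter, 5 were above 0 between affected and unaffected fetuses, with a median of -0.02. Without the length trend 9 of the 11 were above 0, with a median of 0.12, close to the 0.13 of all pore-forming members on that scale. Kcnip1, a calcium sensor that binds Kcnd channels, was at 14.9 FPKM in control, 16.6 in unaffected and 13.7 in affected fetuses and had the lowest value of them, -0.28. Kcnab3, a beta subunit of Kcna channels, had the highest at 1.82, 1.66 and 2.25 FPKM, with 0.42 between the exposed groups and 0.52 without the length trend. The locus of Kcnip1 overlaps Kcnmb1, which was near 0.1 FPKM in every group. Kcnip2 was at 7.80, 6.81 and 6.72 FPKM, lower than control in both exposed groups. Kcnip3, which also acts as a transcriptional repressor, was at 9.997, 10.1 and 11.3 FPKM. Kcnmb2, a BK auxiliary subunit, was at 1.94, 1.83 and 1.65 FPKM, and Kcne1l, a small regulator on the X chromosome, stayed at 11.4, 11.9 and 11.4 FPKM. Over all ions, the 27 auxiliary loci had a median of 0.16 between the exposed groups and the 52 pore-forming loci 0.33, and without the length trend these medians were 0.15 and 0.13.

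**Figure D4:**
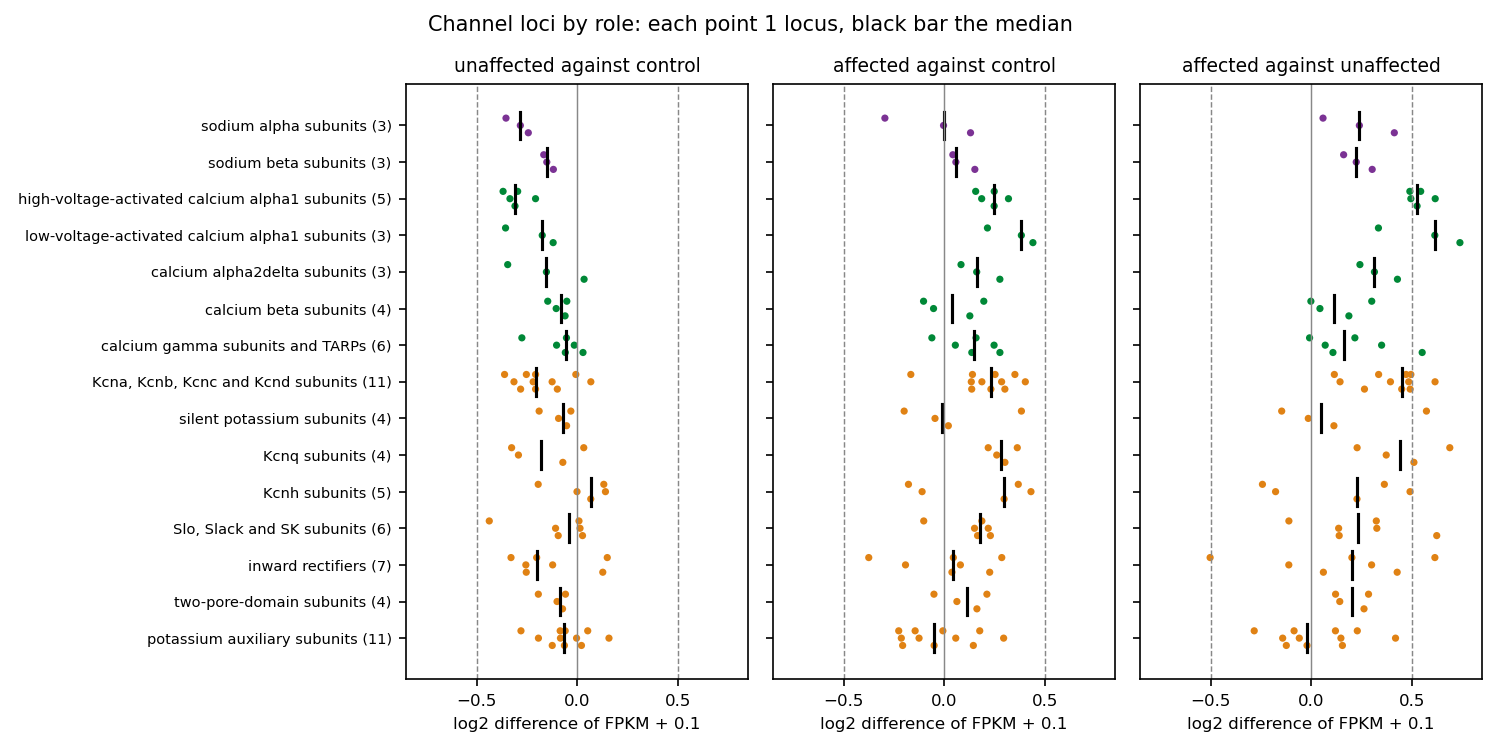
Difference of log2(FPKM + 0.1) of the 79 channel loci by role in the 3 comparisons, with 1 point per locus, a black bar at the median, the number of loci in parentheses and dashed lines at the threshold of 0.5 in either direction. Calcium channel alpha1 loci are all to the left of 0 in unaffected against control and all to the right in affected against unaffected fetuses, whereas potassium auxiliary subunits lie around 0, with a median that changes sign without the length trend.

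The 51 members under the filter included genes known from adult neurons or from other organs. Kcna1 and Kcna2, the axonal delayed rectifiers of mature fibres, had means just under the limit, and Kcna1 was at 0.868 FPKM in control, 0.762 in unaffected and 1.12 in affected fetuses. The nearest member inside the limit was Kcnd1 and the nearest outside was Kcnh1, at 0.930, 0.992 and 1.01 FPKM. Kcnc2 was at 0.944, 0.838 and 0.863 FPKM. Of the 51, 23 had a mean under 0.1 FPKM, and Kcna10 and Kcnk16 were listed at 0 in all groups.

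Proteins that anchor channels at the axon initial segment were described from a list of 16 genes, all past the filter. In affected against unaffected fetuses, 14 were above 0 and 2 of the 16 reached the threshold, with a median of 0.24, beside the 51.2% of all loci above 0 and 10.04% past the threshold. The 2 were Ank3, the master scaffold of the initial segment, at 16.1 FPKM in control, 12.9 in unaffected and 21.1 in affected fetuses, and its membrane partner Nfasc, at 11.5, 9.55 and 16.0 FPKM. Their longest transcripts have 9963 and 9739 nt, in the bin where 21.9% of all loci reached the threshold. Cntnap2, which clusters potassium channels beside nodes, had the reverse order at 34.4, 40.3 and 29.4 FPKM, with a longest transcript of 9827 nt. In a list of 24 other channels and channel partners, 23 passed the filter and 16 were above 0, and 1 reached the threshold. Of 6 genes of the REST repressor complex, which keeps many neuronal channel genes silent outside neurons, 1 reached it, Rcor1 at 8.10, 7.15 and 10.4 FPKM. Rest itself was at 1.62, 1.58 and 1.73 FPKM. No gene of these lists was as far as 0.5 from control in either exposed group.

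The labelled tissue was checked against cell type markers, which also show how the sampled tissue varied between groups. Markers of neurons (10 of 10 past the filter) summed to 4030 FPKM in control, 4000 in unaffected and 3800 in affected fetuses, a sum made up mostly of Tubb3, Stmn2 and Gap43. Between the exposed groups 5 of the 10 were above 0, with a median of 0.04, and Dcx at 0.62 and Nefm at 0.51 reached the threshold, as did 10.04% of all loci. The longest transcript of Dcx has 9074 nt, in the bin where 21.9% of all loci reached it. Markers of cortical projection neurons moved with the channels. All 8 were above 0 in affected against unaffected fetuses and 5 reached the threshold, with a median of 0.52, and their sum was 767 FPKM in control, 674 in unaffected and 866 in affected fetuses. Tbr1, a transcription factor of deep-layer projection neurons, was at 75.7, 62.1 and 98.3 FPKM. Interneuron markers had the reverse order, with none of 7 above 0 between the exposed groups, a median of -0.19 and sums of 651, 731 and 633 FPKM. Sst, Npy and Dlx5, at -0.26, -0.19 and -0.14, have longest transcripts of 721, 566 and 1423 nt. These are in the bin of the shortest, where the median over all loci was -0.30. The other markers of this list have longer transcripts. Radial glia and progenitor markers summed to 2450, 2610 and 1880 FPKM, but this sum follows Fabp7, which was at 2015, 2151 and 1352 FPKM. By gene, 6 of these 10 markers were above 0 between the exposed groups, with a median of 0.16, and 8 of 10 in affected against control fetuses, with a median of 0.28. The proliferation marker Mki67, at 6.49, 6.08 and 10.7 FPKM, was the farthest above 0 of them. Its longest transcript has 10061 nt, in the bin where 21.9% of all loci reached the threshold. Top2a, another proliferation marker, was at 0.13 between the exposed groups. In bulk tissue, fewer cells of a type and less RNA per cell cannot be told apart. The part of these cell types in the channel differences was not tested.

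For the vascular member Kcnj8, the 7 endothelium and pericyte markers were all past the filter and summed to 116 FPKM in control, 118 in unaffected and 113 in affected fetuses. By gene, 4 of the 7 were above 0 between the exposed groups, with a median of 0.25, and Cdh5 at 0.57 and Pdgfrb at 0.51 reached the threshold, beside 10.04% of all loci. Among them, the pericyte gene Rgs5 was at 30.9, 32.6 and 27.1 FPKM, in the order of Kcnj8, and Pdgfrb, another pericyte gene, was at 4.19, 4.01 and 5.75 FPKM, in the opposite order. For Kcnj13, the choroid plexus markers summed to 989, 1310 and 1100 FPKM, led by Ttr. Meningeal markers summed to 76.5, 70.5 and 65.6 FPKM, microglial markers to 46.4, 49.2 and 40.1 FPKM, and erythroid markers (3 of 5 symbols found) to 256, 331 and 208 FPKM. Astrocyte markers summed to 102, 104 and 82.9 FPKM, oligodendrocyte lineage markers to 36.3, 34.2 and 37.1 FPKM and thalamic markers to 118, 109 and 145 FPKM. The thalamic sum follows Lhx2, which is also a cortical gene, at 110, 103 and 138 FPKM, whereas Tcf7l2 was at 4.18, 2.29 and 2.39 FPKM and Gbx2 at 1.02, 1.23 and 0.659 FPKM. Muscle markers summed to at most 2.85 FPKM and retinal markers to at most 0.324 FPKM in any group, with 1 of 6 and 0 of 4 past the filter. The muscle marker past it was Acta1, at 1.95, 2.09 and 1.65 FPKM.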

How the data were processed

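RNA-seq was analysed for 9 fetuses in 3 groups of 3, grouped by the labels. Libraries from an Illumina TruSeq RNA kit were read as paired ends of 50 bp. The authors aligned the reads to mm10 (STAR as well as Bowtie with TopHat are named in the methods), the labels list Bowtie2 2.2.4.0, and the Cufflinks suite with Cuffdiff made the deposited table. The deposited FPKM are 1 value per group and locus, scaled by the authors to transcript length and library size. There were 0 columns of single animals, and the total fragments per library and the use of strand in counting are not given in the sources used here. Precision is therefore limited by 3 animals per group with no error, and reads of overlapping genes (21 of the 130 members) cannot be told apart. Columns of the authors' own comparisons, which hold fold changes, test statistics, p-values, q-values and significance marks, were not used.

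Differences were computed as log2(FPKM + 0.1) for loci with a mean of at least 1 FPKM over the 3 groups, with Python 3.11.15, numpy 2.4.6, pandas 2.3.3 and matplotlib 3.10.9. A log2 difference of at least 0.5 was counted and set beside the share of all 15548 loci past the filter, of which 18.5% have no gene symbol. Transcript length was the longest transcript in GENCODE M21, and its trend was taken as a running median over 501 loci. The code was tested on simulated data. Promoters came from RefSeq on GRCm38.p6, with no entry for 34 of the 131 symbols, and a printed start lies within 500 bases of the end of its deposited locus. Alternatives were other pseudocounts, filters, thresholds and trends, joined or overlapping loci left out, and voltage-gated pores only.

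Genes named are members with a mean of at least 10 FPKM, the 5 highest and 5 lowest differences per comparison and ion, the most abundant member of each role, every sodium channel subunit, and listed genes past the threshold. Others, named to complete a family or to show a marker, were chosen after their values were seen. Some single genes under this rule are not reported here. Members, lists and roles were chosen with earlier results of these data known.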

Additional observations from a re-analysis of the deposited data

How the results depend on the processing

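Each count and median over the channel loci was recomputed under 13 other settings. Where a count or median is not given here, it lay within 1.5 times the main count or within 0.1 of the main median. For affected against unaffected fetuses, the main result of 12 loci higher, 1 lower and a median of 0.24 over 79 loci became 4 higher and 0 lower with a pseudocount of 1 FPKM (6.36% and 5.40% of all loci), 3 of 128 lower with no filter (7.47%), 4 of 33 higher with a filter of 5 FPKM (7.31%), 36 higher with a threshold of 0.3, and 0 higher and 0 lower with a threshold of 1 (1.83% and 1.11% of all loci). At a threshold of 0.3, 22.0% of all loci were higher in that comparison. Removing the transcript length trend gave 2 higher (2.25% of all loci), 0 lower (3.20%) and a median of 0.13, and voltage-gated pores alone gave 0 lower and a median of 0.41. For affected against control, with no locus past the main threshold and a median of 0.15, 1 was higher and 1 lower of 128 with no filter (5.64% and 5.38%), 11 were higher and 1 lower at a threshold of 0.3 (14.0% and 12.8% of all loci), and 1 was lower (1.83% of all loci) with a median of 0.037 without the length trend. For unaffected against control, also with no locus past the main threshold, 1 of 128 was higher with no filter (3.84%) and 11 were lower at a threshold of 0.3 (7.60% of all loci). The cause of these shifts was not tested, apart from filters and thresholds that change the count by construction. Every locus of a symbol gave the main values, since no symbol had several. Among 150 differences of 50 named genes, 82 moved by more than 0.1 without the length trend, 63 without the trend of locus span, 20 with a pseudocount of 1 FPKM and 0 with the median of all loci subtracted, and no difference past the threshold changed sign under these settings. No paired analysis was possible because only 1 value per group was used, and leaving out single animals was not possible for the same reason.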
